A study of Mus musculus with 6 samples.

Results

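Histones are the proteins that package DNA, and their genes form a large family whose transcripts reach a poly(A)-selected library by different routes. The histone genes described here are the 80 of 56691 genes in the deposited table whose symbol carries a histone prefix (H1f, H2af, H2ac, H2ax, H2az, H2bc, H2bu, H3c, H3f, H4c or H4f, or an older Hist form), without names marked as pseudogenes. They were divided by symbol into 66 replication-dependent genes, 7 variant genes (H1f0, H1f10, H2ax, H2az1, H2az2, H3f3a and H3f3b) and 7 others. The others are H3f3c, the antisense gene H3f3aos, H3f4 and the germ-line linker histone genes H1f6, H1f7, H1f8 and H1f9.

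RNA came from 4T1, a mouse mammary carcinoma cell line, after 4 h in fresh medium with vehicle or with KIRA6 at 1 µmol/L. KIRA6 is a kinase inhibitor that binds IRE1α, a sensor of protein folding stress, and lowers its RNase activity. Each group had 3 libraries, called Vehicle 1 to 3 and KIRA6 1 to 3 after the replicate numbers of the labels. Whether these were grown as separate cultures is not in the labels, and a p-value then reflects only how far these samples differ, possibly for technical reasons alone. Values are FPKM, fragments scaled by the exonic length of the gene and by the assigned fragments of the library. A comparison of levels between genes therefore also depends on the annotated length, which may differ from that of the RNA present.

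Replication-dependent histone genes are transcribed in S phase, when new DNA needs new nucleosomes. Their mRNAs normally end just after a stem-loop and carry no poly(A) tail: the stem-loop-binding protein SLBP holds the stem-loop, and the U7 particle with LSM10 and LSM11 directs the cut. Variant histone genes are expressed outside S phase as well, many have introns and ordinary poly(A) sites, and their mRNAs are polyadenylated. Selection on oligo(dT) beads keeps RNA with a poly(A) tail, so the levels of the replication-dependent genes given here are those of the RNA that passed this selection, and the pool without tails was not measured.

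The libraries held an estimated 16493500 to 18592900 assigned fragments with vehicle and 18212750 to 21342900 with KIRA6. Genes above 0 numbered 16474 to 16843 with vehicle and 17801 to 18060 with KIRA6, and mitochondrially encoded genes took 1.75% to 2.03% and 2.66% to 3.25% of the fragments. The part of these shifts in the histone results was not tested. Vehicle 3 and KIRA6 1 lay farthest from the rest of their groups on an axis that held 81.3% of the within-group variance (scores of −48.9 and 38.8), and the class results and the members that moved most with them are also given without them. The 8 epithelial markers were all tested, with Krt8 at 586.3 ± 114.4 and 645.5 ± 110.0 FPKM (SD, n = 3 each), and their sum was 1424 to 1553 FPKM with vehicle and 1723 to 1816 FPKM with KIRA6. Of them 4 (50%) rose (Krt14, Epcam, Cldn3 and Cldn4) and 0 fell, beside 15.6% and 7.98% of all tested genes. Their median log2 fold change was 0.73, against 0.16 for all tested genes. Krt14 went from 22.9 ± 0.721 to 162.1 ± 6.10 FPKM (2.80 on the log2 scale, limma adjusted p = 0.0001425). The 6 leukocyte and 4 endothelial markers stayed below the level tested, with Cd3e and Adgre1 at 0 and with sums of at most 0.85 and 0.06 FPKM in any library. Of 4 fibroblast markers Pdgfra alone was tested and rose (0.533 ± 0.163 and 2.75 ± 0.945 FPKM, adjusted p = 0.006113), with Lum at 0. The part of these markers in the histone results was not tested either.

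The stem-loop is the sequence that sets the replication-dependent mRNAs apart, and it is shown here for members that carry the results and for the other forms it took. Capitals mark the 16 letters of the stem and loop, and lower case the 5 bases on either side, read 5′ to 3′ on the gene's own strand from the GENCODE M21 transcripts.
H1f2: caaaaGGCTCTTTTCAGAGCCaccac
H2bc14: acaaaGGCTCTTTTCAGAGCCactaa
H2ac20: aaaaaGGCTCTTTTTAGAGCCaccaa
H3c6: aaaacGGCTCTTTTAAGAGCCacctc
H4c9: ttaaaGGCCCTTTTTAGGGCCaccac
H4c8: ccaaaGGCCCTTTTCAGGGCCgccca
H2ax: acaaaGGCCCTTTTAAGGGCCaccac

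In each of them the letters before the loop pair with the letters after it. The pattern searched, GGNNCTTTTNANNGCC on the transcript strand with N for any base, occurred in 71 of 55450 genes (0.128%) and in 40 of the 66 replication-dependent genes. Of those 40, 25 held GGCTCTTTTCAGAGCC as H1f2 does, 7 held GGCCCTTTTCAGGGCC as H4c8 does, 5 held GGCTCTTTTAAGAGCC, 2 held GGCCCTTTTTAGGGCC and 1, H2ac20, held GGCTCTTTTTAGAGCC. Among the variants only H2ax held it, in the form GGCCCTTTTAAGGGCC, and among the others only H1f6. No match says only that these letters are not in the annotated transcript, and 26 replication-dependent models had none.

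The gene model decides what can be counted and the length by which it is divided. The exonic length of the replication-dependent genes ran from 312 to 7425 bases. H1f3 (7425 bases) had 18 to 45 fragments a library and a mean of 0.223 FPKM. H1f5 (743 bases) had 10 to 27 fragments and 1.30 FPKM. The part of this length in the levels below was not tested. For 21 replication-dependent genes the model ended within 100 bases after the stem-loop, and their median level was 0.197 FPKM, with 6 of them at a mean of at least 0.5 FPKM. For 19 genes the model went on by more than 100 bases, with a median of 0.303 FPKM and 5 at 0.5 FPKM or more, and for the 26 without a match the median was 0.376 FPKM with 10 at 0.5 FPKM or more. The medians of the 3 kinds of model were therefore all low. The most abundant members stood in the groups with longer or unmatched models: H1f2 (840 bases after the stem-loop) reached a mean of 11.5 FPKM, H4c9 (330 bases) 6.72 FPKM and H2bc4 (no match) 6.19 FPKM. The highest of the models that end near the stem-loop was H2ac20, with 1.67 FPKM.

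**Figure D1:**
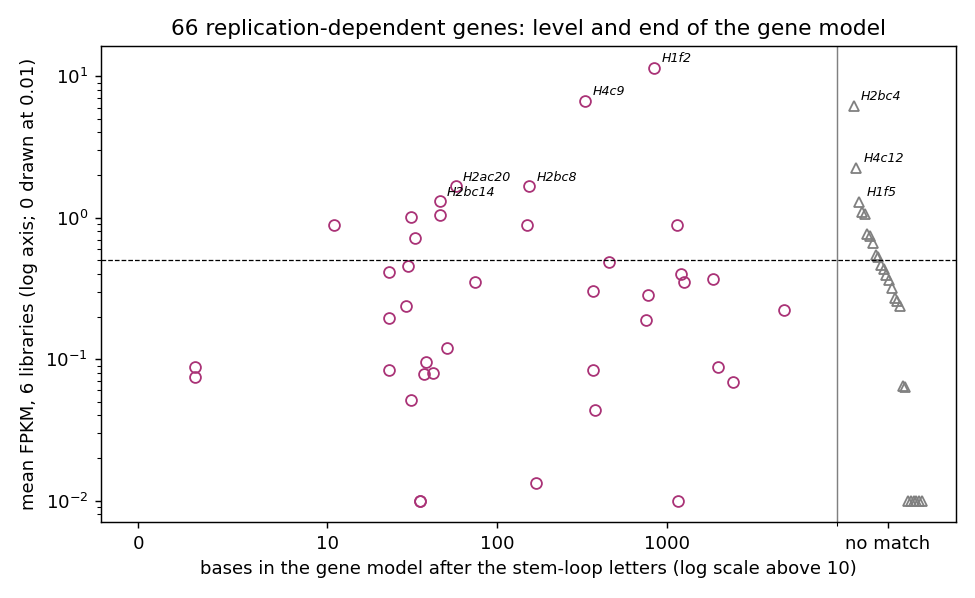
Mean FPKM over 6 libraries (log axis, 0 drawn at 0.01) of the 66 replication-dependent genes against the bases annotated after the stem-loop letters (circles) or without a match (triangles, spread sideways by level only to separate them). The dashed line is 0.5 FPKM; H1f2, H4c9 and H2bc4 lie above 6 FPKM and no gene whose model ends within 100 bases passes 1.67 FPKM.

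Most replication-dependent genes were near the limit of detection. Of the 66, 32 were above 0 in all 6 libraries, 25 in some and 9 in none. They lie mainly in the clusters on chromosome 13 (54 genes) and chromosome 3 (10 genes), with 1 gene each on chromosomes 6 and 11. The 9 at 0 were H1f1, H2ac1, H2ac14 (by its symbol in this class, but an unprocessed pseudogene in GENCODE M21), H2ac18, H2ac19, H2bc1, H2bc18, H3c13 and H3c14. A count of 0 allows 3 fragments, which for these genes is an FPKM of up to 0.0997 (H3c14) to 0.517 (H2ac14), for counting error only. For 5 of them (H2ac18, H2ac19, H2bc18, H3c13 and H3c14) every 100-base window of the transcript also occurs in another gene, and no other replication-dependent gene was shared to that extent. Windows were compared on either strand, so a gene annotated at the same place counts as another gene. Each of these 5 overlaps such a gene, so sharing does not always mean a second copy elsewhere. How fragments that fit several genes were counted is not given in the sources used here, so those levels are uncertain. Over the class, 29 of 66 genes shared more than 50% of such windows, and only 6 of those 29 reached the level tested. By position, 21 of the 66 overlap a gene on the other strand and 6 overlap a gene on the same strand.

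Summed over the 66 genes, replication-dependent histone RNA was higher in every KIRA6 library than in any vehicle library. The sums were 40.6, 36.0 and 32.8 FPKM with vehicle and 75.9, 75.2 and 48.6 FPKM with KIRA6, means of 36.5 ± 3.94 and 66.6 ± 15.6 FPKM (SD, n = 3 each) and a ratio of 1.82. In fragments these were 565 to 690 with vehicle and 1035 to 1736 with KIRA6, or 0.00304% to 0.00379% and 0.00521% to 0.00813% of the assigned total. The number of the genes above 0 was 44 to 46 and 47 to 52. H1f2, H4c9 and H2bc4 together held 38.1% ± 5.08 of the sum with vehicle and 52.2% ± 5.49 with KIRA6. Without these 3 genes the sums were 22.5 ± 2.56 and 31.7 ± 7.82 FPKM, and the groups overlapped, with KIRA6 3 (23.9 FPKM) below Vehicle 1 (25.4 FPKM). In a bulk measurement, a change in the share of cells that make a transcript and a change in its amount per cell cannot be told apart.

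By type of histone, the sums differed in how far the groups separated. The linker histones (5 genes, mostly H1f2) summed to 8.02 ± 1.16 FPKM with vehicle and 19.8 ± 5.16 FPKM with KIRA6, without overlap. The 12 H3 genes were lowest, at 1.26 to 2.01 FPKM against 3.86 to 5.05 FPKM, which is 14 to 22 fragments against 49 to 54, without overlap. In KIRA6 3, H3c10 alone gave 2.94 of the 5.05 FPKM and 24 of the 54 fragments. Of its 100-base windows 92.0% occur in another gene, so that sum is uncertain. The 18 H2B genes summed to 7.44 to 11.6 FPKM and 12.3 to 20.9 FPKM, also without overlap. The 18 H2A genes (4.97 to 5.23 against 3.96 to 9.47 FPKM) and the 13 H4 genes (10.5 to 12.9 against 12.2 to 22.6 FPKM) overlapped between the groups. No test was made of these sums.

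The 7 variant genes held far more of the RNA that passed poly(A) selection than the 66 replication-dependent genes. Their sums were 1362, 1346 and 966 FPKM with vehicle and 2170, 1751 and 1603 FPKM with KIRA6, means of 1225 ± 224 and 1841 ± 294 FPKM and a ratio of 1.504. They took 0.216% to 0.310% of the assigned fragments with vehicle and 0.359% to 0.483% with KIRA6. Variant FPKM exceeded replication-dependent FPKM 29.4- to 37.4-fold in the vehicle libraries and 23.3- to 33.0-fold in the KIRA6 libraries, and these ranges overlapped. Without Vehicle 3 and KIRA6 1 the ratio of KIRA6 to vehicle was 1.24 for the variant sum and 1.62 for the replication-dependent sum. With quantile normalization it was 1.53 for the variant and 1.45 for the replication-dependent sum, so the order of the 2 ratios turned.

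**Figure D2:**
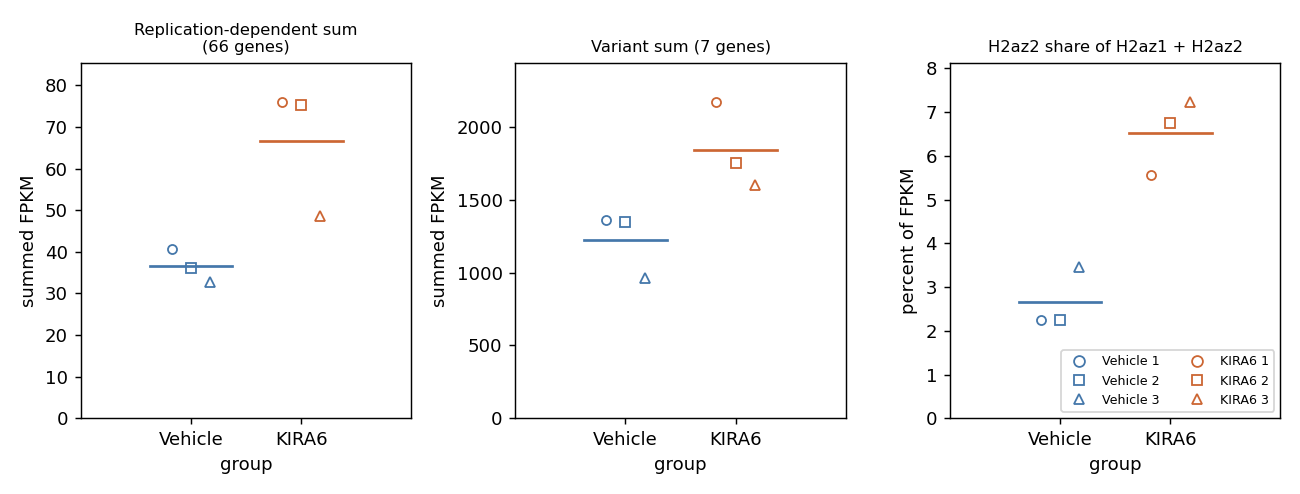
Summed FPKM of the 66 replication-dependent genes and of the 7 variant genes, and the share of H2A.Z FPKM from H2az2 in percent, in each library (points, shaped by replicate number; bars are group means). In all 3 panels every KIRA6 library lies above every vehicle library.

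Single genes were tested with limma on log2(FPKM + 0.5), for genes whose mean reached 0.5 FPKM, and an adjusted p below 0.05 was called. On that scale the change of a low gene is understated. Over all 11778 genes tested, 23.6% were called, 15.6% higher and 7.98% lower with KIRA6, and the median log2 fold change was 0.16. Tested members numbered 28: 21 replication-dependent, 6 variant and H3f3c. Among the variants 2 of 6 rose (H2az2 and H1f0), 0 fell and the median log2 fold change was 0.66. Among the 21 replication-dependent genes 3 rose (H1f2, H2bc4 and H2bc21), 0 fell and the median was 0.33. Those shares of 3 in 21 and 2 in 6 stand beside the 15.6% of all tested genes that were called higher, and with so few members they do not separate either class from the rest. At an unadjusted p below 0.05 no member was lower. The difference between the classes was not tested.

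The direction of the weaker members depended on scaling and on single libraries. With the deposited scaling and all libraries, all 6 variants had log2 fold changes above the median of all tested genes, and above 0. Without Vehicle 3, without KIRA6 1 or without both, 5 of the 6 were above 0 and 4 above that median. With median-ratio scaling H3f3b and H2az1 lay just below 0. That scaling set the median of all genes to −0.04. It set the calls over all genes to 1224 higher and 1556 lower in place of 1843 and 940. That split was 1132 and 1182 with quantile normalization, and 1387 and 1425 with limma-voom on estimated fragments. Of the 21 replication-dependent genes 18 were above 0 and 16 above the median of all genes, and with quantile normalization 11 were above each. With the deposited scaling 7331 of all 11778 tested genes were above 0. The count of called replication-dependent genes was 0 without KIRA6 2, where H2bc4 had an adjusted p of 0.0510 and H1f2 of 0.0541. It was 2 without Vehicle 1, without Vehicle 2, without Vehicle 3 or without KIRA6 1, and 6 of 21 (5 higher and 1 lower) without Vehicle 3 and KIRA6 1 together, a fit in which 56.1% of all genes were called. The count of called variants was 2 or 3 in each of these fits. Over all genes the share called ran from 10.3% to 28.8% with each library left out in turn.

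**Figure D3:**
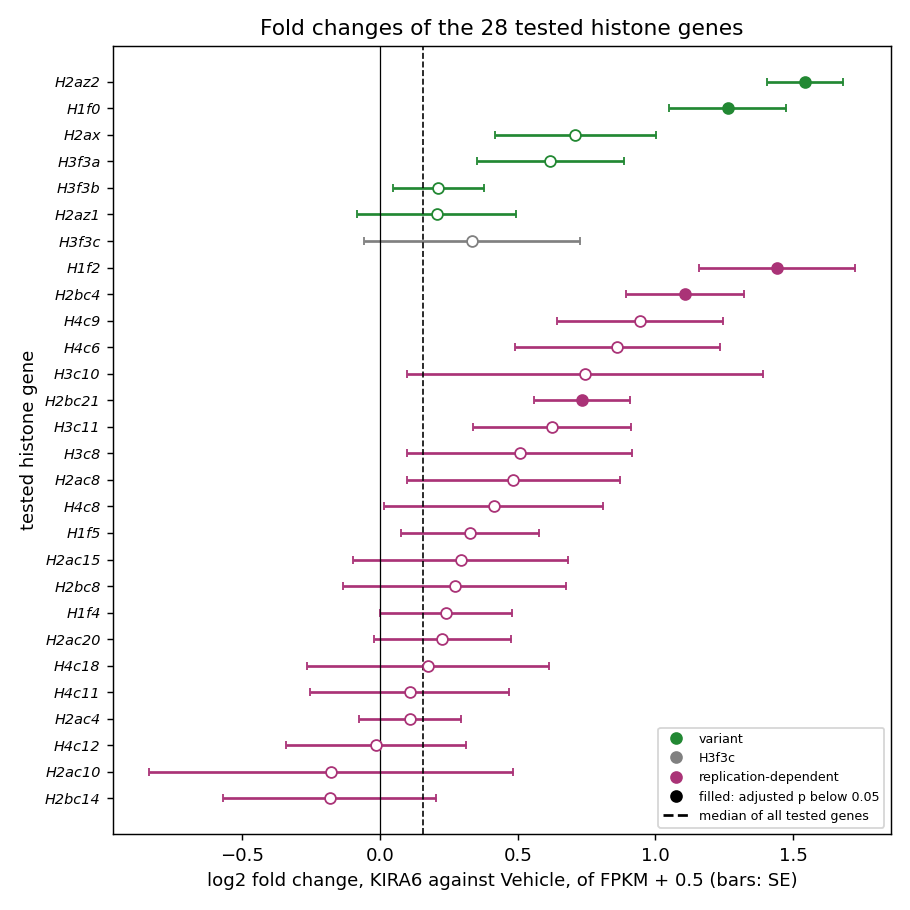
Log2 fold change of FPKM + 0.5, KIRA6 against vehicle, with its SE for the 28 tested histone genes, ordered within each class; filled points had an adjusted p below 0.05 (limma). The dashed line is the median of all tested genes (0.16). H2az2, H1f2, H1f0, H2bc4 and H2bc21 are filled, and the 3 points left of 0 are replication-dependent.

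H2az2 encodes one of the 2 forms of H2A.Z, the variant placed beside transcription start sites and at enhancers. H2az2 (ENSMUSG00000041126, chromosome 11, 6377229 to 6394443 on GRCm39, minus strand) had 11.8, 11.5 and 10.7 FPKM with vehicle and 38.7, 33.4 and 30.3 FPKM with KIRA6. The vehicle libraries lay close together and far below the KIRA6 libraries. Its log2 fold change of 1.54 ± 0.14 (SE, limma adjusted p = 0.001158) was the largest of the tested members, and it was called in all 17 alternative fits. The other H2A.Z gene, H2az1 (chromosome 3), had the highest level of the members in every vehicle library, while H1f0 was higher in every KIRA6 library. H2az1 had 514.3, 501.2 and 298.5 FPKM with vehicle and 657.8, 460.9 and 389.5 FPKM with KIRA6. Its groups overlapped, and its log2 fold change of 0.21 ± 0.29 (adjusted p = 0.6542) turned to −0.05 without Vehicle 3, the lowest library, and to −0.01 without KIRA6 1, the highest. Of the annotated 100-base windows of H2az1, 58.8% occur in another gene, so its level is uncertain, while H2az2 shared none.

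Because the pair moved by different amounts, the makeup of H2A.Z mRNA differed between the groups. H2az2 made up 2.24%, 2.25% and 3.46% of H2A.Z FPKM with vehicle and 5.55%, 6.76% and 7.22% with KIRA6. The highest vehicle library was below the lowest KIRA6 library. H2az1 remained the main form in all 6 libraries.

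H1f0 encodes H1.0, the linker histone that accumulates in cells that leave the cycle or differentiate. H1f0 (ENSMUSG00000096210, chromosome 15, 78912650 to 78914704 on GRCm39, plus strand) had 310.9, 306.2 and 211.9 FPKM with vehicle and 790.5, 614.9 and 573.7 FPKM with KIRA6. The groups did not overlap, and the lowest KIRA6 library lay far above the highest vehicle library. Its mean rose from 276.3 ± 55.9 to 659.7 ± 115.1 FPKM. Its log2 fold change was 1.26 ± 0.21 (limma adjusted p = 0.008166), called in all 17 alternative fits. H1f0 was the source of 96.9% to 97.4% of FPKM over H1f0 to H1f5 in every library of both groups. This is a share of the RNA that passed poly(A) selection. RNA of the replication-dependent H1f1 to H1f5 without a tail was not measured, so the share of all linker histone mRNA is not known.

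H2ax encodes H2A.X, which is phosphorylated around DNA breaks, and its mRNA is known both with a stem-loop end and with a poly(A) tail. H2ax (chromosome 9, 44245991 to 44247374, plus strand) has the stem-loop printed above, and its model goes on for 822 bases after it. It had 60.9, 64.4 and 112.8 FPKM with vehicle and 94.8, 153.3 and 134.0 FPKM with KIRA6. Vehicle 3 lay above KIRA6 1, so the groups overlapped, and the log2 fold change was 0.71 ± 0.29 (adjusted p = 0.1278). Without Vehicle 3 it was 0.99 (adjusted p = 0.0191), and without both of those libraries 1.19 (adjusted p = 0.0001049). Those fits called 28.8% and 56.1% of all genes. Both libraries were picked from these data as the farthest from their groups. For H2ax they are also the highest vehicle and the lowest KIRA6 library, so leaving them out was bound to widen the difference and lower p.

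H3f3a and H3f3b both encode H3.3, which replaces H3 at transcribed genes throughout the cycle. H3f3a (chromosome 1) had 115.5, 108.5 and 63.8 FPKM with vehicle and 176.8, 133.7 and 123.0 FPKM with KIRA6. The groups did not overlap, as in 41.8% of all tested genes (27.7% with KIRA6 higher and 14.1% with KIRA6 lower), and the log2 fold change was 0.62 ± 0.27 (adjusted p = 0.1428). It was 0.35 without Vehicle 3, the lowest library, and 0.20 without Vehicle 3 and KIRA6 1. H3f3b (chromosome 11) had 348.4, 354.5 and 268.3 FPKM with vehicle and 411.6, 355.3 and 352.1 FPKM with KIRA6. The groups of H3f3b overlapped narrowly and its log2 fold change was 0.21 ± 0.17 (adjusted p = 0.4017), or 0.0094 without Vehicle 3 and KIRA6 1. H3f3a made up 22.5% ± 2.95 of the pair's FPKM with vehicle and 27.8% ± 2.11 with KIRA6, and H3f3b was the larger in every library. The antisense gene H3f3aos overlaps H3f3a on the other strand and had 0.18 to 0.23 FPKM with vehicle and 0.34 to 0.43 FPKM with KIRA6. The strand setting of the counting is not given in the sources used here. H1f10, the remaining variant, had 1 fragment in 1 library.

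**Figure D4:**
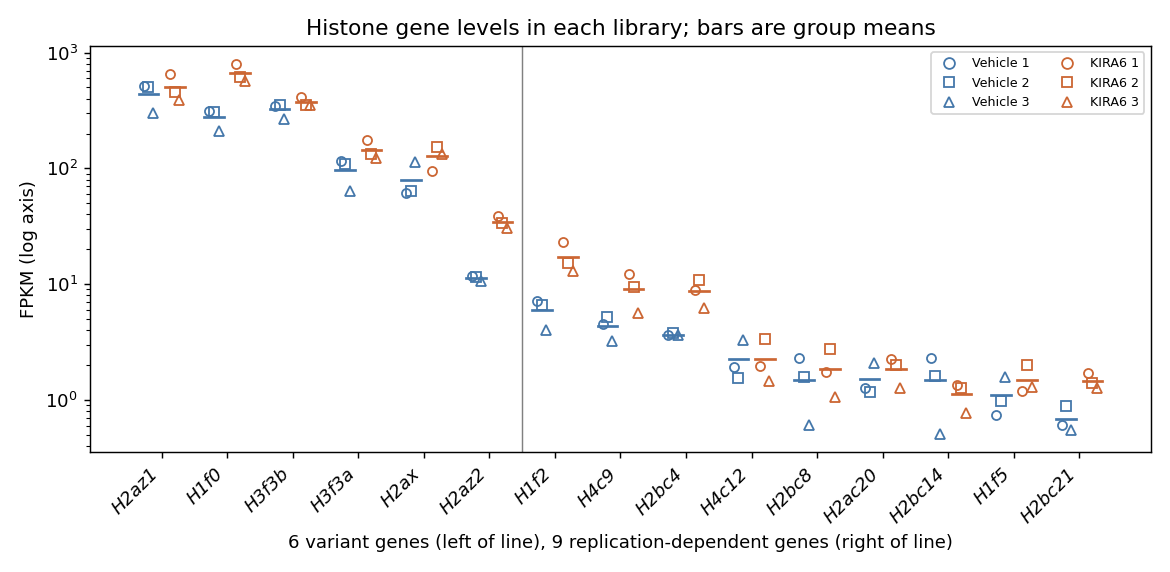
FPKM (log axis) in each library of the 6 tested variant genes and of 9 replication-dependent genes, with vehicle at the left of each pair (blue) and KIRA6 at the right (orange); bars are group means. H2az2, H1f0, H3f3a, H1f2, H4c9, H2bc4 and H2bc21 show no overlap between the groups, and the other 8 do. These are 7 of the 28 tested histone genes, a share near the 27.7% of all tested genes without overlap and with KIRA6 higher. H2bc21 is drawn because it was called.

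The most abundant replication-dependent gene was also a linker histone. H1f2 encodes H1.2, a main somatic linker histone (ENSMUSG00000036181, chromosome 13, 23922791 to 23924350, plus strand). It had 7.15, 6.61 and 4.04 FPKM with vehicle and 23.0, 15.2 and 12.9 FPKM with KIRA6, which is 203, 170 and 117 fragments against 765, 433 and 400. Every KIRA6 library was above the highest vehicle library. The log2 fold change was 1.44 ± 0.28 (limma adjusted p = 0.0136), and the call ended in 1 of 17 alternative fits, without KIRA6 2 (adjusted p = 0.0541).

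H2bc4 and H2bc21 encode H2B, and both are annotated without the stem-loop letters. H2bc4 (chromosome 13, 23868182 to 23876891, plus strand) had 3.61, 3.78 and 3.63 FPKM with vehicle and 8.96, 10.97 and 6.19 FPKM with KIRA6. The vehicle libraries were nearly equal (72 to 78 fragments) and the KIRA6 libraries spread from 142 to 231 fragments. The log2 fold change was 1.11 ± 0.21 (adjusted p = 0.01277), and the call ended without Vehicle 2 (adjusted p = 0.0522) and without KIRA6 2 (adjusted p = 0.0510). H2bc21 (chromosome 3, 96128435 to 96131054, plus strand) had 0.61, 0.88 and 0.55 FPKM with vehicle and 1.70, 1.40 and 1.27 FPKM with KIRA6, or 27 to 38 and 66 to 95 fragments. Its log2 fold change of 0.73 ± 0.18 (adjusted p = 0.02655) lost the call in 7 of 17 alternative fits: median-ratio scaling (0.0587), quantile normalization (0.256) and the removal of Vehicle 1 (0.0868), Vehicle 3 (0.0503), KIRA6 1 (0.0634), KIRA6 2 (0.0910) or KIRA6 3 (0.0571). None of the 100-base windows of H2bc21 occurs in another gene, against 25.4% of those of H2bc4.

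H4c9, an H4 gene whose model runs 330 bases past the stem-loop (chromosome 13, 22224806 to 22225532, minus strand), had 4.53, 5.25 and 3.26 FPKM with vehicle. It had 12.2, 9.44 and 5.61 FPKM with KIRA6, all above the vehicle libraries though KIRA6 3 only just. The log2 fold change of 0.94 ± 0.30 missed the threshold (adjusted p = 0.06512) and passed it without KIRA6 3 (1.24, adjusted p = 0.0338) and when rescaled to TPM (adjusted p = 0.0498).

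The 5 remaining genes of the highest levels lay between 1 and 3 FPKM, rested on 5 to 31 fragments a library and overlapped between the groups. The H4 gene H4c12 had 1.94, 1.55 and 3.28 FPKM with vehicle and 1.95, 3.34 and 1.45 FPKM with KIRA6 (log2 fold change −0.01 ± 0.33), and 64.3% of its windows are shared. The H2B gene H2bc8 had 2.31, 1.57 and 0.61 FPKM against 1.74, 2.75 and 1.06 FPKM. The H2A gene H2ac20 had 1.27, 1.17 and 2.07 FPKM against 2.25, 2.01 and 1.26 FPKM. None of these 3 separated the groups, and in each the libraries of 1 group differed by more than the group means did. The H2B gene H2bc14 had 2.31, 1.62 and 0.51 FPKM against 1.34, 1.26 and 0.77 FPKM, the lowest fitted change of the class (−0.18 ± 0.39). The linker histone gene H1f5 had 0.74, 0.98 and 1.59 FPKM against 1.2, 1.99 and 1.29 FPKM. Adjusted p of these 5 ran from 0.394 for H1f5 to 0.9817 for H4c12.

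The other 12 tested replication-dependent genes had means of 0.523 to 1.10 FPKM and log2 fold changes from −0.18 to 0.86. Of these 11 were above 0, beside 7331 of all 11778 tested genes. Adjusted p ran from 0.1423 to 0.8786. The 45 genes below the level tested, each with a mean of at most 0.487 FPKM and at most 58 fragments in any library, summed to 5.36 to 7.62 FPKM with vehicle and 6.79 to 13.3 FPKM with KIRA6. Those ranges overlapped. H3f3c, an H3.3 retrocopy on chromosome 2 that shares 56.7% of its windows with other genes, had 4.01, 2.95 and 1.05 FPKM with vehicle and 3.42, 2.54 and 3.55 FPKM with KIRA6. The fitted change on the log2 scale was 0.33 ± 0.39 (adjusted p = 0.5878).

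Promoters are printed for 2 of the genes that rose, 1 of each class, to show where the searched motifs lie. Both are RefSeq promoters on GRCm38.p6, the 250 bases before the gene's start on the gene's strand, with capitals for matches to the CCAAT box, the TATA box letters TATAAA and the H1 element AAACACA on either strand. A CCAAT box on the other strand reads ATTGG.
H1f2, chr13:23738557-23738806, plus strand: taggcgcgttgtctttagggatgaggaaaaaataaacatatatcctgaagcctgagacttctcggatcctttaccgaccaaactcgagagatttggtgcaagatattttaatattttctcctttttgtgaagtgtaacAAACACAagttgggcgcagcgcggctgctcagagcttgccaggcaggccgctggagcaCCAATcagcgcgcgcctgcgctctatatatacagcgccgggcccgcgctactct
H2az2, chr11:6444444-6444693, minus strand: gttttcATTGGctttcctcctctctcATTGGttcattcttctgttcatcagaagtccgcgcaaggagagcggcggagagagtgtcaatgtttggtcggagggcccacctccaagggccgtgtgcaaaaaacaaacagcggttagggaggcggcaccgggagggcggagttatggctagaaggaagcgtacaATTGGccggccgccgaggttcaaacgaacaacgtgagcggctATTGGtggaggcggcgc

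AAACACA is the element known from H1 promoters. It occurred in 5 of 10 H1 promoters listed, H1f2 among them, and in 6.22% of all 27025 promoters of that length. CCAAT occurred in 48 of the 59 replication-dependent promoters matched by symbol (81.4%) and in 34.5% of all promoters, and TATAAA in 29 of 59 (49.2%) and in 12.97% of all. Of the 6 variant promoters 4 held CCAAT, 1 held TATAAA and 1 held AAACACA, which 8 of the 59 held. CCAAT was found 4 times in the H2az2 window and once in that of H1f2. The H1f0 window held none of the 3, which says only that these letters are not there. No binding was measured, so a match is a description.

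Of the genes that process histone mRNA, few passed the test. In that list 34 of 36 genes were tested, 1 rose (Lsm10) and 3 fell (Lsm1, Cstf2 and Lsm11), with a median log2 fold change of −0.17 against 0.16 for all genes. That is 2.94% higher and 8.82% lower, beside 15.6% and 7.98% of all tested genes, so the share that fell was near that of all genes. Slbp, which binds the stem-loop, had 24.8, 24.6 and 18.1 FPKM with vehicle and 20.2, 16.4 and 19.2 FPKM with KIRA6, and the groups overlapped (log2 fold change −0.26 ± 0.17, adjusted p = 0.3234). The paired U7 subunits went opposite ways. Lsm10 had 5.40 ± 1.61 and 10.5 ± 2.30 FPKM (log2 fold change 0.91 ± 0.25, adjusted p = 0.04013), and Lsm11 had 4.62 ± 1.00 and 2.71 ± 0.246 FPKM (−0.66 ± 0.19, adjusted p = 0.04766). Both kept their direction in all 17 alternative fits, but Lsm10 lost its call in 9 of them and Lsm11 in 6. For Lsm10 these included median-ratio scaling, quantile normalization and limma-voom. Lsm1, of the decay complex that also acts on histone mRNA, fell by 0.89 on the log2 scale (adjusted p = 0.0331), and the cleavage factor gene Cstf2 fell by 0.62 (adjusted p = 0.0255). These calls were near the threshold: the list had 0 calls without Vehicle 1 or without KIRA6 2, 1 without Vehicle 2 (higher) or KIRA6 3 (lower), 2 without KIRA6 1, and 8, all lower, without Vehicle 3. Without Vehicle 3 and KIRA6 1, where 56.1% of all genes were called, Slbp (−0.47, adjusted p = 0.0115), Eri1 (−0.50, 0.0151), Npat (0.40, 0.0323) and Casp8ap2 (0.74, 0.0104) also passed. Npat, the coactivator of histone genes at the histone locus body, had 4.75 ± 0.0929 and 5.98 ± 0.904 FPKM (adjusted p = 0.2135), and its partner Casp8ap2 (FLASH) 0.993 ± 0.144 and 1.60 ± 0.643 FPKM (adjusted p = 0.2525, and 0.0452 without KIRA6 1). Eri1, the exonuclease that trims the histone mRNA end, had 10.3 ± 3.04 and 8.83 ± 1.02 FPKM (adjusted p = 0.6535), and Zfp473, a U7-associated zinc finger, was below the level tested at 0.133 ± 0.0306 and 0.397 ± 0.0709 FPKM.

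Among the genes for poly(A) tails and the RNA exosome, which trims and degrades RNA, 0 of 23 tested rose and 5 (21.7%) fell, beside 15.6% and 7.98% of all tested genes. All 5 encode parts of the exosome. The catalytic subunit gene Dis3 had 21.1, 19.9 and 13.8 FPKM with vehicle and 8.58, 7.12 and 7.85 FPKM with KIRA6, a log2 fold change of −1.15 ± 0.19 (adjusted p = 0.007706). Dis3 separated the groups clearly and was called in all 17 alternative fits. The core subunits Exosc3 and Exosc2 fell by 1.12 and 1.18 on the log2 scale (adjusted p = 0.01097 and 0.01935), and Exosc1 and Exosc7 by 0.85 and 0.64. Members of the list called lower numbered 2 without Vehicle 1 or without KIRA6 3, 1 without Vehicle 2 or without KIRA6 2, and 3 without KIRA6 1. The list median was −0.17.

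Histone chaperones carry newly made histones to DNA, and 0 of 31 tested rose and 4 (12.9%) fell, beside 15.6% and 7.98% of all tested genes. Ruvbl2, an ATPase of the complexes that deposit H2A.Z, had 76.5, 77.5 and 68.0 FPKM with vehicle and 43.9, 39.8 and 36.0 FPKM with KIRA6, far below (log2 fold change −0.89 ± 0.14, adjusted p = 0.005936). Its partner Ruvbl1 fell by 0.89 (adjusted p = 0.0170) and the chaperone gene Set by 0.54 (adjusted p = 0.0361). Hira, which deposits H3.3, had 6.76 ± 0.438 and 4.70 ± 0.152 FPKM (−0.48 ± 0.13, adjusted p = 0.0382). Its call ended in 8 of 17 alternative fits, among them each with 1 library left out (adjusted p from 0.0524 to 0.145). Without Vehicle 1, Vehicle 2, KIRA6 2 or KIRA6 3 a single member of the list was called lower, and without KIRA6 1 there were 2. The chaperones of replication-dependent H3 and H4 were not called: Asf1b had 71.1 ± 9.08 and 65.9 ± 10.2 FPKM, Asf1a 8.34 ± 1.35 and 9.44 ± 0.426 FPKM, Chaf1a 18.6 ± 1.15 and 14.3 ± 1.31 FPKM, and Chaf1b 23.5 ± 0.955 and 19.0 ± 2.10 FPKM. Nasp, which stores H3 and H4, had 18.9 ± 5.08 and 15.6 ± 1.64 FPKM, and Daxx, the other H3.3 chaperone, 11 ± 1.09 and 9.08 ± 1.02 FPKM. Median-ratio scaling did call Chaf1a and Chaf1b lower (adjusted p = 0.0250 and 0.0432). Without Vehicle 3 and KIRA6 1 Asf1b, Chaf1a, Chaf1b and Nasp were called lower (adjusted p from 0.005618 for Nasp to 0.0235 for Asf1b). That fit called 56.1% of all genes.

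Genes of the G1/S transition and S phase give the setting in which replication-dependent histones are normally made. Of 46 tested 2 (4.35%) rose and 7 (15.2%) fell, beside 15.6% and 7.98% of all tested genes, and the median log2 fold change was −0.20. Cyclin E1 (Ccne1), whose kinase activates NPAT, had 12.4, 12.8 and 14.7 FPKM with vehicle and 4.84, 4.72 and 5.66 FPKM with KIRA6 (log2 fold change −1.31 ± 0.14, adjusted p = 0.001939). Cdkn1b, which encodes the cyclin-CDK inhibitor p27, had 17.0, 17.7 and 15.7 FPKM with vehicle and 50, 42.9 and 53.6 FPKM with KIRA6 (1.51 ± 0.14, adjusted p = 0.001216). Neither gene came near an overlap, and both were called in all 17 alternative fits. The inhibitor p21 (Cdkn1a) rose from 1.64 ± 0.0889 to 3.23 ± 0.204 FPKM, and its call ended with quantile normalization and without KIRA6 2 (adjusted p = 0.0506).

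The origin-licensing gene Cdc6 fell from 18.0 ± 2.43 to 8.46 ± 0.419 FPKM, and Cdc25a, a phosphatase that activates CDK2, from 15.04 ± 0.804 to 7.59 ± 1.05 FPKM, both called in all 17 alternative fits. The nucleotide synthesis genes Rrm2 and Tk1 and the replication genes Mcm3 and Mcm10 made up the rest of the 7, with log2 fold changes from −0.90 to −0.63. Without Vehicle 1, Vehicle 2 or KIRA6 3 the members called lower numbered 4, and without KIRA6 2 they numbered 3. The replication clamp gene Pcna (164.2 ± 33.0 and 134.1 ± 14.8 FPKM), Ccne2 (7.23 ± 2.15 and 6.09 ± 0.328 FPKM) and E2f1 (16.7 ± 1.95 and 11.95 ± 0.691 FPKM) were not called, with adjusted p of 0.3498, 0.5939 and 0.05395. E2f1 passed with median-ratio scaling (adjusted p = 0.0166), and all 3 were called lower without Vehicle 3 and KIRA6 1 (adjusted p from 0.005571 for Pcna to 0.0426 for E2f1). The fit without those libraries called 56.1% of all genes.

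**Figure D5:**
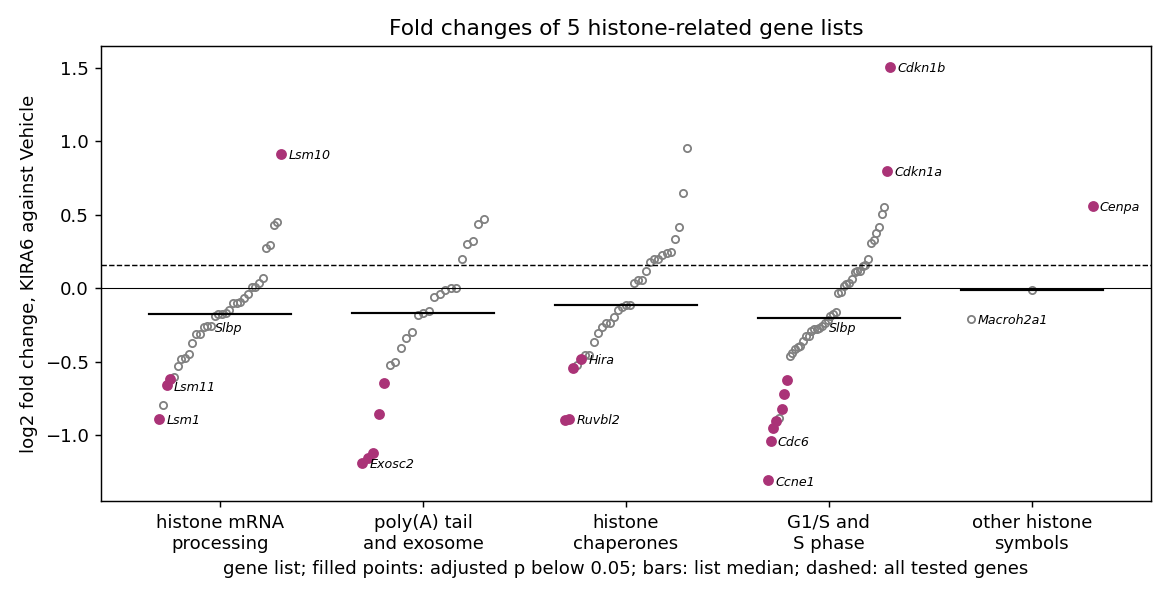
Log2 fold change, KIRA6 against vehicle, of each tested gene in 5 lists (points ordered by value within a list; filled where the adjusted p was below 0.05, limma; solid bars are list medians, the dashed line the median of all tested genes at 0.16). The 4 longer lists have medians between −0.20 and −0.11, and Cdkn1b and Ccne1 lie at the extremes of the G1/S and S phase list.

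Histone genes named outside the symbol rule were read as well, and 3 of the 14 listed reached the level tested. Cenpa, which encodes the H3 variant of centromeres, had 25.3, 24.1 and 20.5 FPKM with vehicle and 38.7, 35.04 and 30.2 FPKM with KIRA6, without overlap (log2 fold change 0.56 ± 0.15, adjusted p = 0.04013). That call ended in 9 of 17 alternative fits. These were each fit with 1 library left out (adjusted p from 0.0533 to 0.138), median-ratio scaling (0.34, adjusted p = 0.190), limma-voom and no filter on low values. Macroh2a1, which encodes the H2A variant macroH2A1, had 20.3 ± 1.79 and 17.5 ± 0.269 FPKM (adjusted p = 0.2752), and the H2A.J gene H2aj 15.4 ± 2.75 and 15.1 ± 1.13 FPKM (adjusted p = 0.9754). Macroh2a2 was below the level tested, with at most 0.21 FPKM in any library.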

How the data were processed

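Polyadenylated RNA of 3 vehicle and 3 KIRA6 samples was selected on oligo(dT) beads and prepared with strand information, per the labels' protocols. The authors deposited FPKM per gene and library. The build was GRCm39, and the submitters' processing notes name HTSeq 0.6.1 for counting beside HISAT2 2.2.1, DESeq2 1.34.0 and cutadapt 1.9.1, without settings. Fragments per library were estimated from the steps between low FPKM values of short genes. Of the 833 to 1062 values checked per library, 100% lay within 0.1 of a whole fragment. Estimated fragments cover counting error only.

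The fit used limma 3.58.1 (R 4.3.3) on log2(FPKM + 0.5), with trend, robust, two-sided and Benjamini-Hochberg adjustment over the 11778 genes whose mean reached 0.5 FPKM, and was tested on simulated data. No permutation test was used, since 3 libraries against 3 reach a p of 0.1 at the lowest. Alternatives changed the pseudocount, filter, scaling, empirical Bayes settings and libraries, added a replicate block, and ran limma-voom on estimated fragments.

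The members, the gene lists and the rule for naming genes were chosen with earlier results of these data known. The rule names every tested variant, the 8 replication-dependent genes of highest mean, every called member, 23 genes of the lists whatever their values and up to 3 called genes per list. Exosc1, Exosc7, Cdc25a, Rrm2, Mcm3, Mcm10, Tk1 and Cdkn1a were added after their values were seen, as were H3f3c and H3f3aos. The 7 genes marked -ps were left out. Transcripts came from GENCODE M21, whose longest or stem-loop-bearing model had the table's exonic length for 71 of 80 members, and promoters from RefSeq, GRCm38.p6.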

Additional observations from a re-analysis of the deposited data

How the results depend on the processing

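Counts and medians of the classes moved with some settings, and the cause was not tested. The count of called replication-dependent genes was 3, ran from 0 to 3 with each library left out in turn and was 6 of 21 when Vehicle replicate 3 and KIRA6 replicate 1 were both left out, where 56.1% of all genes were called. Their median log2 fold change of 0.33 was 0.52 with a pseudocount of 0.1, 0.029 with quantile normalization and 0.51 without those 2 libraries, and ran from 0.24 to 0.52 with each library left out. The variant median of 0.66 was 0.44 with median-ratio scaling and 0.49 with limma-voom, and ran from 0.61 to 0.69 with each library left out, while 2 to 3 variants were called. The ratio of sums ran from 1.70 to 2.07 for replication-dependent and from 1.36 to 1.60 for variant genes with each library left out. H2ax counted as replication-dependent left both counts at 3 and 2.

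Some fitted values turned direction, and no replication-dependent or variant gene that turned was called in either fit. With quantile normalization 7 of the 21 replication-dependent genes turned, among them H1f5 (−0.015), H2ac20 (−0.11) and H2bc8 (−0.071). With median-ratio scaling 2 turned, H2ac4 and H4c11, beside H3f3b (−0.015), H2az1 (−0.021) and Asf1a (−0.036), and with limma-voom H2ac4 and H4c11 turned too. Without Vehicle replicate 3 and KIRA6 replicate 1 together H2ac4, H2bc8 (−0.10), H4c12 (0.29) and H2az1 (−0.26) turned. With each library left out in turn, 2 or 3 replication-dependent genes turned in each fit. H2bc8 ran from −0.10 to 0.57, H2bc14 from −0.61 to 0.13, H4c12 from −0.29 to 0.24, H2az1 from −0.049 to 0.37, Eri1 from −0.41 to 0.015 and H2aj from −0.15 to 0.10.

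Calls in the 4 longer gene lists also moved. For histone mRNA processing, poly(A) tails and exosome, chaperones, and G1/S and S phase, members called lower numbered 3, 5, 4 and 7, and 7, 9, 7 and 11 with median-ratio scaling. Without Vehicle replicate 3 and KIRA6 replicate 1 they numbered 17, 11, 12 and 23, with 7, 4, 7 and 5 called higher, beside 4227 higher and 2383 lower of 11778 genes.

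The deviations of same-numbered libraries from their group means correlated at 0.76, −0.47 and 0.74 for numbers 1, 2 and 3. Numbers 1 and 3 thus went together and number 2 did not, as Vehicle 2 correlated at 0.71 with KIRA6 1. The labels do not say whether the numbers mark a pairing, and the main fit did not use them. With the replicate block 4 replication-dependent genes were called, H4c9 being added (adjusted p = 0.004791), and 4 variants, with H2ax (0.02622) and H3f3a (0.01305) added. Over all genes the block called 37.6%.

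Depth limits the low members most: 1 fragment of a 500-base gene is worth 0.0937 to 0.121 FPKM, so a gene at 0.5 FPKM rests on a handful of fragments and a modest change could not have been detected. The levels of genes with shared windows also depend on how such fragments were counted.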

Other observations

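The 7 genes left out as pseudogenes were mostly near 0, apart from H3f3a-ps1 on the X chromosome, a copy of an H3.3 gene. H3f3a-ps1 had 9.38, 7.24 and 5.91 FPKM with vehicle and 15.1, 8.70 and 9.46 FPKM with KIRA6, and the groups overlapped. H3f3a itself shares 26.3% of its 100-base windows with other genes, so its level is uncertain. Which genes these are was not recorded. Shared windows were not counted for H3f3a-ps1, so how far its level can be trusted is not known. H2af-ps2 had 0.97, 0.72 and 0.16 FPKM with vehicle and was listed at 0 in the 3 KIRA6 libraries.

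The stem-loop pattern was also present in 29 genes outside the symbol rule (0.0524% of the other genes), of which 2 carry another histone symbol.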
